A study of Caenorhabditis elegans with 2 samples.

Results

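The regions described here are 1185 candidate binding sites of SAEG-2 in Caenorhabditis elegans that fell just short of the threshold used for the deposited peak sets. They were chosen by their score, which follows the irreproducible discovery rate (IDR). This measure is low where a peak ranks both high and similarly in the peak sets compared. Of the 87308 ranked regions in the shorter of the 2 ranked lists of the whole series, 1190 had a score from 540 to 829, which corresponds to an IDR above 0.01 and up to 0.05. Of these, 5 overlapped a peak of the conservative list and were set aside, which left 1185 candidates of 304 bp each. The conservative list holds 1145 peaks with an IDR of 0.01 or lower, and the candidates were compared with them.

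Binding was mapped by ChIP-seq, the sequencing of DNA that is precipitated together with a protein, using an anti-GFP antibody and whole L4 larvae of strain RW12230, which carries st12230[saeg-2::TY1::EGFP::3xFLAG] III, an insertion made by CRISPR at the gene's own locus. The larvae were 48 h old and came from populations starved as L1 larvae after bleaching. Chromatin was sonicated to 200 to 800 bp. There is 1 group with 2 biological replicates and no second condition. Control libraries were not analysed here, read depth is unknown, and whole animals do not show which cells a signal came from.

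EGL-4 is a protein kinase activated by cGMP that controls body size, egg laying and sensory behaviour, and SAEG-2 is one of the nuclear proteins through which it acts. Its partners are SAEG-1 and HDA-2, a histone deacetylase, an enzyme that removes acetyl groups from histone tails. A ranked list of peaks has no natural end, and a threshold on the IDR sets where a peak set stops.

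The sequences around the summits are shown in 3 sets, because the candidates include tRNA genes, gene promoters and regions that are neither. Each is the + strand of ce11 (WBcel235, RefSeq copy), 101 bases long with the summit in the middle. The first set holds the 3 strongest candidates at a tRNA gene whose window contains the B box core GTTCGANNC on either strand. The B box lies inside a tRNA gene and is bound by the transcription factor TFIIIC. The matched letters are in capitals. The windows lie at chrV:12002149-12002249 for F57F5.t1, a tRNA-Ile gene, at chrIV:5038893-5038993 for C09B9.t1, a tRNA-Lys gene, and at chrX:1858818-1858918 for T26C11.t1, a tRNA-Glu gene.
F57F5.t1: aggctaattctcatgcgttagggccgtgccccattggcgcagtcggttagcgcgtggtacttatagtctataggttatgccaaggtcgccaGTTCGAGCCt
C09B9.t1: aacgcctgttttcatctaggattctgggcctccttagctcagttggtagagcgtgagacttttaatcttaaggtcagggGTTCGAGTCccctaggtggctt
T26C11.t1: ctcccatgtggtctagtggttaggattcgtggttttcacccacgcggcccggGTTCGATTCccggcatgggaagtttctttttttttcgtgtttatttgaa

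The second set holds the 4 strongest candidates in the promoter window of a coding gene, away from tRNA genes, that contain ACGCAG or its reverse complement, the word with the lowest p, by an exact McNemar test, for a higher share at the centres of conservative peaks than in their flanks. The match is in capitals. The summit near F28C10.3 (chrX:535971-536071) is intergenic and that near spat-2 (chrIII:11036315-11036415) is intergenic as well. The summit near mep-1 (chrIV:11524390-11524490) is in a noncoding exon and that near lea-1 (chrV:10020091-10020191) in an intron.
F28C10.3: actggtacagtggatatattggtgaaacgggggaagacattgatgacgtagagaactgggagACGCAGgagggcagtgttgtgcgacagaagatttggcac
mep-1: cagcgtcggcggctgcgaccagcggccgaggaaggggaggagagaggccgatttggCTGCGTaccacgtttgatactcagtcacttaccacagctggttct
spat-2: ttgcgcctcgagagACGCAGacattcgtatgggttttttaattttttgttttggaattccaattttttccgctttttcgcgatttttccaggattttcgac
lea-1: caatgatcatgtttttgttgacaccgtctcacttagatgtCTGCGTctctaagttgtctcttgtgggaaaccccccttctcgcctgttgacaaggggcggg

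The third set holds the 3 candidates of highest signal value that lie away from tRNA genes, again with ACGCAG in capitals where it occurs. They are an intergenic region nearest to Y49G5A.1 (chrV:5284287-5284387) and introns nearest to tos-1 (chrV:9342994-9343094) and nhr-19 (chrII:9603584-9603684).
Y49G5A.1: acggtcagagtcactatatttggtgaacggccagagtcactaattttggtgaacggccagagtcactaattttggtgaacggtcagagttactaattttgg
tos-1: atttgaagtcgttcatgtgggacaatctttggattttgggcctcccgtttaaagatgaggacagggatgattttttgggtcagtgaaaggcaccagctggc
nhr-19: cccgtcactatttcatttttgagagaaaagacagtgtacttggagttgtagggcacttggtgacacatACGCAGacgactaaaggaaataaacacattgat

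The Y49G5A.1 window is a tandem repeat. Shifted by 26 bases against itself, 93.3% of its letters were equal, against 38.2% or fewer at the best shift of tos-1 and nhr-19. This candidate had the highest pooled signal value of all, 138. The regions that overlapped it had 225 in replicate 1 and 312 in replicate 2, both above the pooled value. The lists do not show whether those values belong to the candidate or to a neighbouring region. The candidate overlapped the thresholded list of neither replicate. It shared 101 bp with a ranked region at chrV:5283982-5284285 with the top score of 1000 and a signal of 509, and a second such region with a signal of 263 began 183 bp beyond it. Neither of these is in the conservative list. Of the 1204 ranked regions with a score of 830 or more, 59 were absent from that list, and 2 candidates overlapped one of them.

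The signal value is the authors' own measure of enrichment, in units that are not stated, and it is given here as a description because it enters the IDR. The median was 65.9 in the candidates, 96.9 in the conservative peaks and 57.5 in the next 1181 ranked regions, with an IDR above 0.05 and up to 0.1 and no overlap with either set. The middle 50% of the candidates lay between 59.7 and 71.8, and that of the conservative peaks between 81.5 and 126. Only 7 candidates reached the conservative median.

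In the replicates' own ranked lists, 1112 candidates (93.8%) had an overlapping region in both, 39 in replicate 1 alone, 33 in replicate 2 alone and 1 in neither. Where several regions overlapped, the signal of the one with the highest score was taken, and at equal scores the higher signal. The median was 31.5 in replicate 1 and 34.8 in replicate 2 for the candidates, against 46.2 and 53.1 for the conservative peaks. Signals in the replicates differed by more than 1.5-fold at 180 of the 1112 candidates (16.2%). The counts were 107 of 286 in the strongest 25% by pooled signal (37.4%), against 73 of 826 among the others (8.84%). The lower of the 2 replicate values had a median of 30.7 in the strongest 25% and 30.1 in the others, while the higher one had medians of 41.96 and 36.02. The rule bears on these values, since a region of high pooled signal falls in the band only if its IDR is above 0.01, so they are a description of how the candidates were chosen. Among conservative peaks the signals differed by more than 1.5-fold at 218 of the 1129 with a region in both replicates (19.3%).

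**Figure D1:**
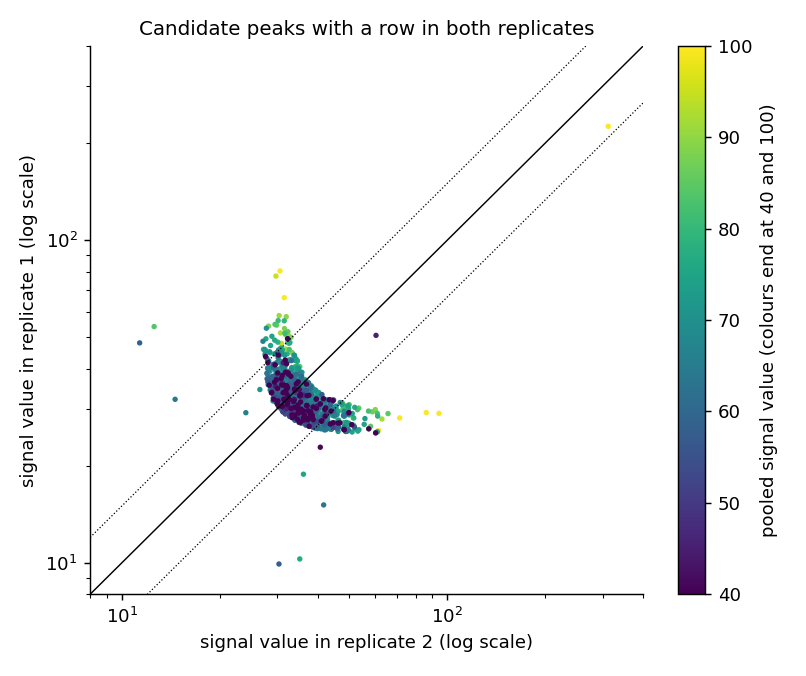
Signal value of each candidate in replicate 1 (vertical) against replicate 2 (horizontal), both on log scales, for the 1112 candidates with a region in both; colour is the pooled signal, the solid line marks equal values and the dotted lines a 1.5-fold difference. Points beyond the dotted lines form 2 arms with a higher signal in one replicate than in the other, a shape on which the choice by IDR bears. The repeat at Y49G5A.1 is the single point at the upper right, placed by the replicate regions that overlap it, which may be those of a neighbouring region.

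Several of the named candidates had a much higher value in one replicate than in the other. The intronic candidate at tos-1 had a pooled signal of 126, with 29.1 in replicate 1 and 94.3 in replicate 2. At nhr-19, a nuclear hormone receptor gene, the values were 118 pooled, 29.2 in replicate 1 and 86.2 in replicate 2. The reverse held for gcy-33, which encodes a soluble guanylate cyclase, with 116 pooled, 80.3 in replicate 1 and 30.6 in replicate 2. It held also for egl-17, a fibroblast growth factor ligand that guides migrating sex myoblasts, with 95.2 pooled, 77.4 in replicate 1 and 29.8 in replicate 2. The candidate upstream of sor-3 had 105 pooled, 28.1 in replicate 1 and 71.5 in replicate 2. In each of these 5, a single replicate passed its own threshold. The candidate upstream of C55A6.10 had 101 pooled, 66.4 in replicate 1, which passed its threshold, and 31.6 in replicate 2. The one upstream of czw-1 had 102 pooled, 25.7 in replicate 1 and 61.5 in replicate 2, and passed in neither.

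Among all candidates, 18 overlapped the thresholded list of replicate 1, 22 that of replicate 2 and 0 both, so 1145 (96.6%) passed in neither replicate alone. A larger share, 225 (18.99%), overlapped the non-conservative thresholded list of the whole series, against 999 of the 1145 conservative peaks (87.2%). In 108 candidates the pooled signal lay below both replicate values, with a median of 11.9. Of these, 96.3% overlapped another ranked region of higher signal. At mep-1, for example, the candidate printed above had 85.8, and a neighbouring candidate, chrIV:11524493-11524796, had 6.83 with the same replicate values, 25.9 and 48.3. Merging overlapping candidates left 1083 regions.

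At the upper edge, the 3 candidates just inside, each with a score of 829, lay near kin-29, a salt-inducible kinase gene, T27E4.7 and F53E4.1, with signals of 85.4, 84.2 and 78.3. The 3 ranked regions just outside lay near cyp-35A4, igeg-1 and math-33, with signals of 61.3, 74.9 and 76.4. At the lower edge, those just inside lay near F43G9.4, cmd-1, the calmodulin gene, and oaz-1, with 2.67, 51.6 and 54.8. Those just outside lay near anat-1, Y53G8AL.1 and F43G9.4, with 65.6, 65.6 and 64.3. Ties in score were broken by signal value, so differences in signal between these regions reflect how they were picked. Another candidate with a score of 540, at srw-85, had a signal of 69.1. No conclusion on signal at the edges follows from them.

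Candidates lay less often at promoters than conservative peaks. The promoter window of a coding gene covers the 1000 bp before and the 500 bp after any of its 5′ ends. Such a window held the summit of 485 of 1185 candidates (40.9%, 95% Wilson interval 38.2 to 43.8), against 536 of 1145 conservative peaks (46.8%, 43.9 to 49.7; Fisher's exact test, two-sided, p = 0.00451). All windows together cover 31.9% of the genome. The share in the next band was 39.7%, and its difference from the candidates did not pass (p = 0.558, Fisher's exact test). Each replicate's own ranked list has its own band of the same scores. Of its regions, 13.0% of 339 in replicate 1 and 14.5% of 413 in replicate 2 overlapped a candidate and no conservative peak. A conservative peak overlapped 54.6% in replicate 1 and 49.6% in replicate 2, and 32.4% and 35.8% overlapped neither. These bands thus hold mostly other regions. There the band also had the lower share, 42.5% against 50.7% of thresholded peaks in replicate 1 (p = 0.0256, Fisher's exact test) and 41.2% against 50.3% in replicate 2 (p = 0.0059, Fisher's exact test). The difference did not pass in the stronger part of the band, with an IDR up to 0.025, where the share was 44.4% (p = 0.369, Fisher's exact test). The median distance to the nearest coding 5′ end was 1045 bp for candidates and 884 bp for conservative peaks, and 9.37% of candidates against 14.2% of conservative peaks lay within 200 bp upstream of one.

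The clearest difference was in coding exons. They held 289 candidate summits (24.4%, 22.03 to 26.9) and 118 conservative summits (10.3%, 8.68 to 12.2; adjusted p = 8.66e-19, Fisher's exact test, Benjamini-Hochberg over 6 classes). Coding exons make up 24.6% of the genome, which is close to the share of the candidates and above that of the conservative peaks. Intergenic summits were fewer, 34.5% of candidates against 48.12% of conservative peaks (adjusted exact p = 8.15e-11), beside 34.6% of the genome. Noncoding exons, which include tRNA and other small RNA genes outside introns, held 4.98% of candidates against 11.4% of conservative peaks (adjusted exact p = 1.96e-08). Introns (29.96% of candidates against 25.6% of conservative peaks) and 3′ UTRs (3.38% of candidates against 1.75% of conservative peaks) were slightly more frequent, each with an adjusted exact p of 0.0249. For 5′ UTRs, the shares were 2.78% of candidates and 2.79% of conservative peaks (adjusted exact p = 1). The bands of both replicates, which are mostly other regions than the candidates, had the coding exon difference from thresholded peaks too, 18.3% of the band against 4.42% of thresholded peaks in replicate 1 and 17.9% of the band against 4.81% of thresholded peaks in replicate 2. They had the intergenic one as well, 41.0% of the band against 54.2% of thresholded peaks in replicate 1 and 39.5% of the band against 54.7% of thresholded peaks in replicate 2. The intron difference had the opposite sign in replicate 1 alone and the 3′ UTR difference in replicate 2 alone, and the noncoding exon difference passed in neither.

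**Figure D2:**
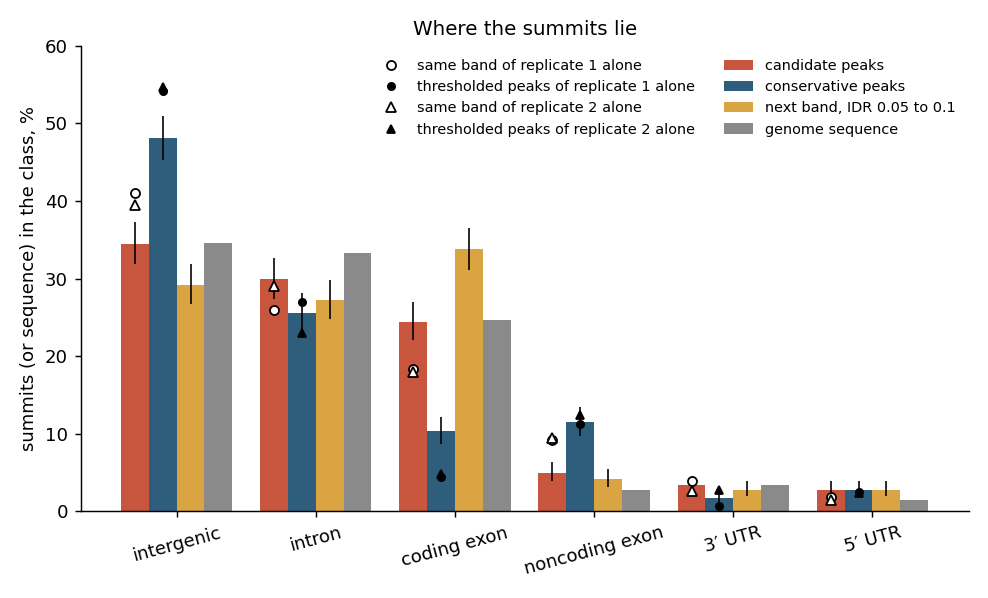
Share of summits in each of 6 location classes (vertical, in %) for candidates, conservative peaks and the next band, with 95% Wilson intervals, and the share of the genome sequence. Open symbols are the same score band and filled symbols the thresholded peaks in each replicate's own lists; coding exons hold 24.4% of candidates against 10.3% of conservative peaks, and intergenic sequence 34.5% against 48.12%.

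Against the next band, candidates had fewer summits in coding exons, 24.4% against 33.8% (adjusted p = 2.95e-06, Fisher's exact test), and more between genes, 34.5% against 29.2% (adjusted exact p = 0.0186). Neither difference passed within a replicate's own lists. Across the ranked list the coding exon share was 10.3% in conservative peaks, 22.1% at an IDR of 0.01 to 0.025, 26.2% at 0.025 to 0.05, 33.8% at 0.05 to 0.1 and 30.6% above 0.4. The promoter share was 46.8%, 44.4%, 38.2%, 39.7% and 32.2% in the same order. The candidates thus stood between the conservative peaks and the weaker ranked regions on coding exons, while their promoter share was close to that of the next band.

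**Figure D3:**
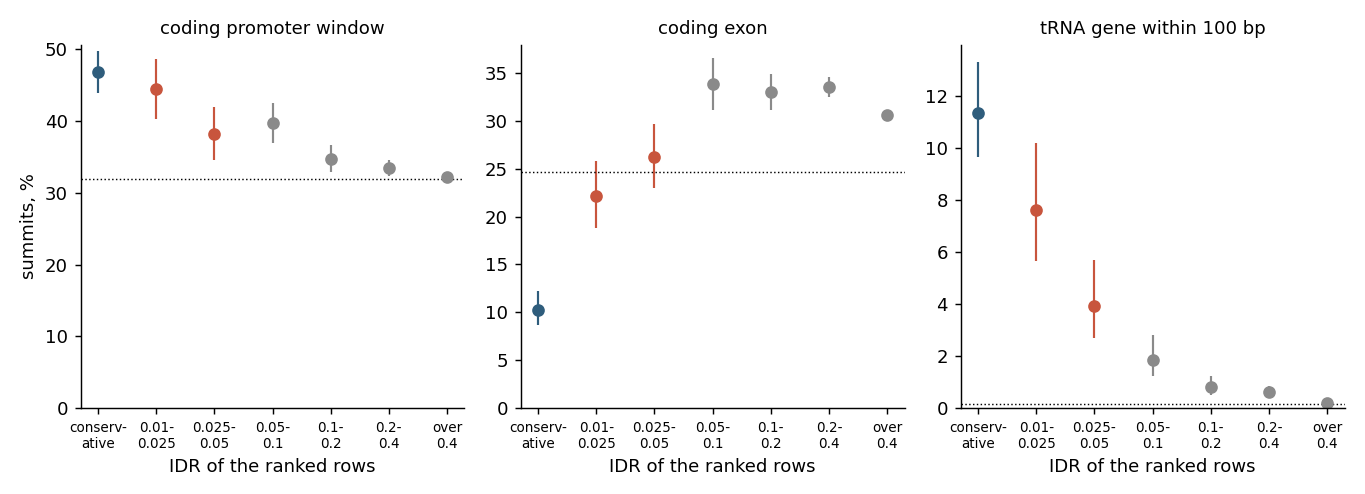
Share of summits (vertical, in %, with 95% Wilson intervals) in a coding promoter window, in a coding exon and within 100 bp of a tRNA gene, for the conservative peaks and for ranked regions in steps of rising IDR; red points are the 2 steps that make up the candidates and the dotted line is the share of the genome. The tRNA share is 11.4% in conservative peaks, 7.62% and 3.94% in the candidates and 0.194% above an IDR of 0.4.

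The tRNA genes, transcribed by RNA polymerase III, were the small RNA class most often found. A tRNA gene lay within 100 bp of 66 candidate summits (5.57%, 4.40 to 7.02) and 130 conservative summits (11.4%, 9.64 to 13.3; adjusted p = 2.35e-06, Fisher's exact test, over 5 small RNA classes). Such positions make up 0.164% of the genome. In the next band the share was 1.86%, lower than in the candidates (adjusted p = 9.45e-06, Fisher's exact test). The replicates' own lists did not show the difference from thresholded peaks: 11.2% of the band against 11.1% in replicate 1 (adjusted exact p = 1) and 8.72% of the band against 10.7% in replicate 2 (adjusted exact p = 0.722), nor that from the next band. Of the replicates' bands, 54.6% of regions in replicate 1 and 49.6% in replicate 2 overlapped a conservative peak.

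The 66 candidates stood for 66 of 612 annotated tRNA genes (10.8%), and 139 genes (22.7%) had a conservative summit. No gene had both, a count on which the rule against overlap bears, so 205 (33.5%) had one or the other. In 32 of the 66 the summit was inside the gene. By amino acid, tRNA-Arg had 10 of 44 genes with a candidate and 6 with a conservative peak, and tRNA-Gln had 4 of 27 with a candidate and 2 with a conservative peak. For tRNA-Lys, 10 of 46 had a candidate and 13 a conservative peak, and for tRNA-Glu 8 of 41 had a candidate and 10 a conservative peak. For tRNA-Gly, 1 of 55 had a candidate and 15 a conservative peak. The 20 genes each of tRNA-Asn, tRNA-His and tRNA-Met had 0 with a candidate, and 4, 4 and 5 with a conservative peak. These counts are a description with no test. On the X chromosome lay 34 of the 66 genes and 276 of all 612.

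The strongest tRNA candidates were picked by pooled signal, so the choice by IDR bears on how uneven they were between replicates. F57F5.t1, near gcy-33, had 80.3 in replicate 1 and 30.6 in replicate 2, as given above. C04E7.t1, a tRNA-Leu gene near sor-3, had 28.1 in replicate 1 and 71.5 in replicate 2. F38G1.t2, a tRNA-Asp gene near egl-17, had 77.4 in replicate 1 and 29.8 in replicate 2. F33G12.t1, a tRNA-Ile gene, had 46.0 in replicate 1 and 31.9 in replicate 2, within the 1.5-fold limit. The candidates counted above for the coding genes gcy-33, sor-3 and egl-17 are therefore the same regions as those of these tRNA genes, and the lists cannot say to which gene the signal belongs. The B box core GTTCGANNC was present in 25 of the 66 windows at tRNA genes (37.9%), in 16 of 1119 other candidate windows (1.43%) and in 0.749% of all windows of that width along the genome.

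Genes for snoRNAs, which guide chemical changes of ribosomal RNA, lay near 14 candidate summits (1.18%) against 50 conservative ones (4.37%; adjusted p = 6.81e-06, Fisher's exact test). The difference passed in replicate 1 alone (2.36% of the band against 7.30% of thresholded peaks, adjusted exact p = 0.00909) and not in replicate 2 alone (3.15% of the band against 6.65% of thresholded peaks, adjusted exact p = 0.0865). The highest signals were at T08B2.13, with 83.6 pooled, 54.01 in replicate 1 and 12.6 in replicate 2, and T04A8.17, with 82.3 pooled, 45.9 in replicate 1 and 32.7 in replicate 2. Genes for snRNAs lay near 11 candidates (0.928%) against 17 conservative peaks (1.48%), a difference that did not pass (adjusted exact p = 0.426). Such positions make up 0.0407% of the genome. In the next band the share was 0.0847%, from 1 region, lower than in the candidates (adjusted p = 0.0156, Fisher's exact test). Neither replicate's own lists showed that difference. Of the 11, 4 were sls-2 genes, which encode spliced leader RNA: sls-2.18, sls-2.13, sls-2.10 and sls-2.12. Their pooled signals were 81.6, 78.02, 72.8 and 68.5. These genes were named after their values were seen. The share of sls-2 genes among all snRNA genes, or among those near conservative peaks, was not counted. The count of 4 is therefore a description and no measure of enrichment. Next to cel-mir-8209 and mir-2214 the signals were 73.4 and 71.8, and next to rrn-4.2, a 5S ribosomal RNA gene, 70.9.

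Most coding genes with a candidate had no conservative peak, as did most coding genes of the genome, and the rule against overlap partly fixes the count. A candidate summit lay in the promoter window of 499 of 19973 protein-coding genes (2.5%) and a conservative summit in that of 619 (3.1%). The bands of replicate 1 and replicate 2, taken alone, marked 162 and 186 genes. A candidate and a conservative summit both lay in windows of 32 genes. This is 6.41% of the candidates' genes, above the 3.1% of all coding genes with a conservative summit. It is 5.17% of the conservative peaks' genes, above the 2.5% of all coding genes with a candidate. These shares were not tested. The median gap between a candidate and the nearest conservative peak was 23232 bp, and 91 candidates (7.68%) lay within 1000 bp of one. The strongest candidates at genes with both were at C34B4.2 (84.9 pooled, 30.2 in replicate 1 and 53.5 in replicate 2) and hlh-30, the TFEB homologue that drives autophagy and lysosomal genes (82.4 pooled, 27.7 in replicate 1 and 41.3 in replicate 2). Others were lea-1 (77.5 pooled), a gene of the desiccation-linked LEA family, kin-14 (75.7 pooled), mnk-1 (69.1 pooled), which encodes a kinase of the eIF4E-phosphorylating type, and kel-3 (68.5 pooled). All 6 of these had the higher value in replicate 2, as did 687 of the 1112 candidates with a region in both. Among the 10 strongest such genes, ipla-7 alone had the higher value in replicate 1 (74.01 pooled, 39.3 in replicate 1 and 31.8 in replicate 2).

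The 34 lists of coding genes were described by counts, with no test of any list. A summit counted for every gene whose window held it, so a named gene need not be the nearest one. The share over all coding genes, 2.5% with a candidate and 3.1% with a conservative peak, is the background, and the median signal over all 499 genes was 67.7. In 20 lists the share with a candidate was above that background, in 13 it was more than 2 times as high, and 5 lists had no gene with a candidate. Several of the 13 rest on few genes, such as intestine with 1 of 20 (5%) and pharynx with 1 of 16 (6.25%). The lists were chosen with earlier results of these data known, so these tallies are a description.

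**Figure D4:**
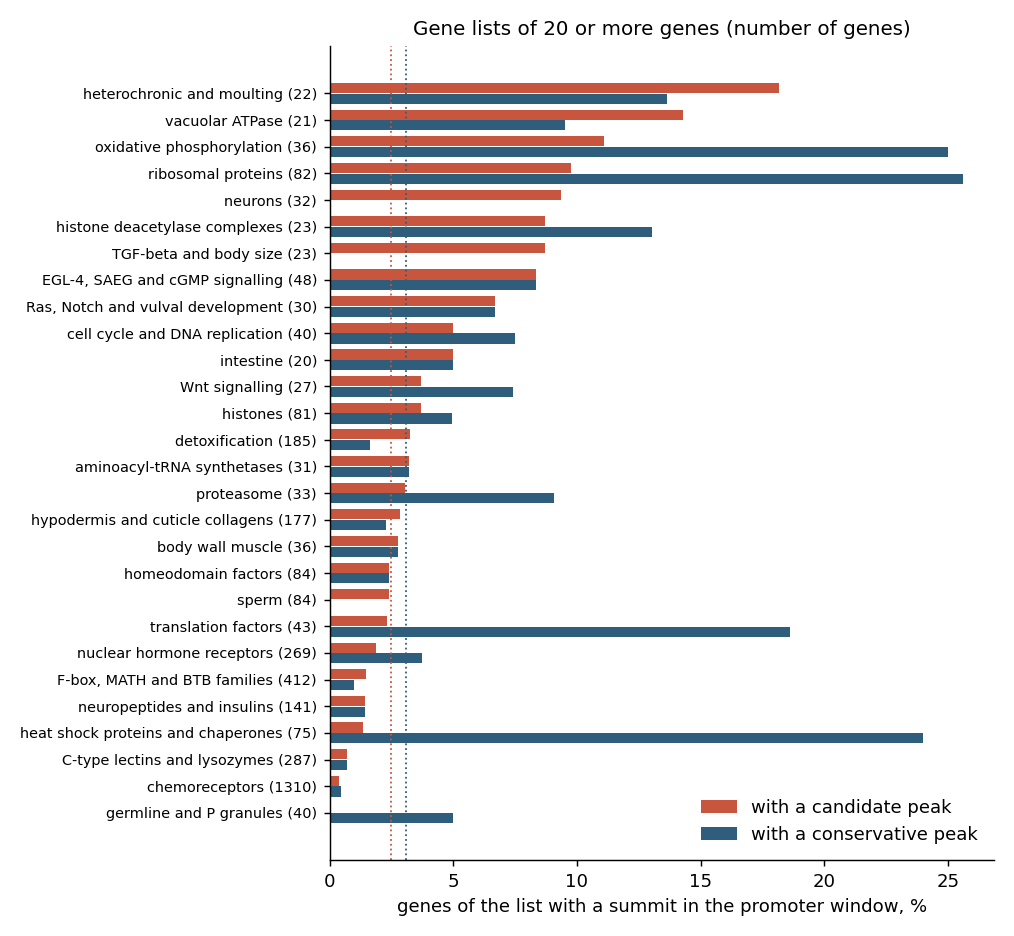
Share of the genes of each list (horizontal, in %) with a candidate summit (red) and with a conservative summit (blue) in the promoter window, for lists of 20 or more genes, whose number is in brackets; dotted lines are the shares over all coding genes, 2.5% and 3.1%. Ribosomal proteins, chaperones and translation factors have the widest gaps in favour of conservative peaks.

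Ribosomal protein genes had a candidate more often than the background of 2.5%, and a conservative peak more often still, by counts that were not tested. Of 82 such genes, 8 had a candidate (9.76%, 5.03 to 18.1) and 21 a conservative peak (25.6%), with 1 gene in both and a median candidate signal of 70.2. Those of highest signal were rpl-41.2 (79.6 pooled, 36.5 in replicate 1 and 37.04 in replicate 2), rps-3 (73.4 pooled), rpl-9 (72.3 pooled) and rpl-23 (71.7 pooled). Among 43 translation factors, eif-3.J alone had a candidate (60.4 pooled, 36.0 in replicate 1 and no region in replicate 2), and 8 had a conservative peak. Of 75 heat shock proteins and chaperones, which help proteins fold, hsp-70 alone had a candidate (57.6 pooled, 29.5 in replicate 1 and 35.3 in replicate 2), against 18 with a conservative peak. Among 31 aminoacyl-tRNA synthetases 1 had a candidate (kars-1, which charges tRNA-Lys, 72.3 pooled) and 1 a conservative peak. Of 33 proteasome genes 1 had a candidate (rpn-2, a regulatory particle subunit, 72.7 pooled), against 3 with a conservative peak.

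Genes of energy metabolism were present in both sets. Of 36 oxidative phosphorylation genes, 4 had a candidate and 9 a conservative peak. The 4 were atp-2 (67.1 pooled, 28.1 in replicate 1 and 42.7 in replicate 2), atp-5 (65.5 pooled, 35.4 in replicate 1 and no region in replicate 2) and atp-4 (63.4 pooled), which encode ATP synthase subunits, and cox-4 (65.9 pooled), which encodes a cytochrome c oxidase subunit. Of 21 genes of the vacuolar ATPase, the proton pump of lysosomes, 3 had a candidate and 2 a conservative peak. The candidates were at vha-2 (65.98 pooled), vha-13 (64.4 pooled) and vha-20 (59.6 pooled), and all 3 summits were in coding exons.

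Genes of larval timing and moulting stood highest among the lists of 20 or more. Of 22 genes, 4 had a candidate and 3 a conservative peak, with 0 in both and a median candidate signal of 65.1. They were lin-66 (71.8 pooled, 45.9 in replicate 1 and 27.5 in replicate 2), which acts on lin-28, lin-14 (65.4 pooled, 30.6 in replicate 1 and 30.5 in replicate 2), the early timing gene repressed by lin-4, and blmp-1 (64.9 pooled, 37.3 in replicate 1 and 32.3 in replicate 2), a Blimp1-type repressor. The last was myrf-2 (49.2 pooled, 29.3 in replicate 1 and 33.7 in replicate 2), a membrane-bound transcription factor gene. Read against the background of 2.5%, 4 of 22 (18.2%, Wilson interval 7.31 to 38.5) rests on few genes.

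Around the pathway of SAEG-2 itself, 4 of 48 genes of EGL-4, SAEG and cGMP signalling had a candidate (8.33%, 3.29 to 19.6) and 4 had a conservative peak, with 1 in both. They were gcy-33, described above, pde-6 (69.1 pooled, 31.0 in replicate 1 and 32.2 in replicate 2) and pde-2 (60.8 pooled, 40.3 in replicate 1 and 29.3 in replicate 2), which encode cyclic nucleotide phosphodiesterases, and che-6 (66.8 pooled, 29.1 in replicate 1 and 38.3 in replicate 2), a cyclic nucleotide-gated channel subunit. The windows of saeg-1, saeg-2, hda-2 and egl-4 held no candidate. The nearest one to saeg-1 lay 3657 bp upstream (chrV:10869204-10869507; 71.9 pooled, 40.2 in replicate 1 and 34.9 in replicate 2). One lay in an intron of egl-4, 3222 bp from a 5′ end (chrIV:1876380-1876683; 44.6 pooled, 35.2 in replicate 1 and 29.7 in replicate 2). For hda-2 and saeg-2 the nearest lay 6221 bp and 113737 bp away.

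Of 23 genes of histone deacetylase complexes, 2 had a candidate and 3 a conservative peak. They were mep-1 (85.8 pooled), which encodes a zinc finger partner of the Mi-2 homologue, and egl-27 (59.7 pooled, 34.1 in replicate 1 and 31.6 in replicate 2), an MTA-type factor. None of 11 histone acetyltransferase and bromodomain genes and none of 17 DREAM and class B synMuv genes had a candidate, while 3 of each had a conservative peak. In TGF-beta signalling, which sets body size, daf-4, the type II receptor, had 64.3 pooled, and sma-9, a Schnurri homologue, had 54.2 pooled. These were 2 of 23 genes, against 0 with a conservative peak. In insulin signalling, par-5, a 14-3-3 protein gene, had 87.2 pooled, with 28.2 in replicate 1 and 51.4 in replicate 2. The gene of the FOXO factor DAF-16, daf-16, had 64.4 pooled with 38.3 in replicate 2 and no region in replicate 1. Of the 19 insulin genes, 2 had a candidate and 2 a conservative peak.

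Few genes of the tissue lists had a candidate, so the shares are uncertain. Of 32 neuronal genes, 3 had a candidate (9.38%, 3.24 to 24.2) and 0 a conservative peak: unc-43, the CaMKII gene (76.2 pooled, 33.1 in replicate 1 and 37.6 in replicate 2), unc-7, an innexin (62.9 pooled), and unc-31, which is needed for dense core vesicle release (60.5 pooled). Of 36 muscle genes 1 had a candidate, unc-112, the kindlin homologue (71.8 pooled), and 1 a conservative peak. Of 20 intestinal genes 1 had a candidate, asp-1, an aspartic protease (66.6 pooled), and 1 a conservative peak. The share with a candidate was 5% (0.888 to 23.6). Of 16 pharyngeal genes 1 had a candidate, ceh-22, an NK-2 type homeodomain factor (72.8 pooled), and 0 a conservative peak. The share with a candidate was 6.25% (1.11 to 28.3). The shares for neurons, intestine and pharynx lie above the background of 2.5% and rest on 3, 1 and 1 genes. Of 177 cuticle and hypodermis genes 5 had a candidate and 4 a conservative peak. None of 40 germline genes and none of 6 yolk protein genes had a candidate, and 2 of 84 sperm genes did (spe-48 and spe-9).

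Among large gene families, chemoreceptors had the lowest share with a candidate. Of 1310 chemoreceptor genes 5 had a candidate (0.382%, 0.163 to 0.89) and 6 a conservative peak. Of 287 C-type lectin and lysozyme genes 2 had a candidate (0.697%, 0.191 to 2.505) and 2 a conservative peak. Of 412 F-box, MATH and BTB genes 6 had a candidate (1.46%, 0.669 to 3.14) and 4 a conservative peak, and of 269 nuclear hormone receptor genes 5 had a candidate (1.86%, 0.796 to 4.28) and 10 a conservative peak. The intervals of the last 3 families hold the background of 2.5%. Detoxification genes had 6 of 185 with a candidate (3.24%, 1.49 to 6.89) and 3 with a conservative peak. In the remaining lists the counts with a candidate and with a conservative peak were 1 and 2 of 27 for Wnt signalling (pry-1, the axin homologue, 71.6 pooled), 2 and 2 of 30 for Ras, Notch and vulval development (egl-17 and the Notch receptor gene glp-1), and 2 and 3 of 40 for the cell cycle and DNA replication (mcm-4 and mdf-1). They were 3 and 4 of 81 for histones, where his-17 and his-18 shared a candidate summit. For homeodomain factors they were 2 and 2 of 84, and for neuropeptides and insulins 2 and 2 of 141. For RNA polymerase III and its factors they were 0 and 0 of 16.

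By chromosome, 20.5% of candidates and 23.5% of conservative peaks were on the X chromosome, which is 17.7% of the genome (adjusted p = 0.267, Fisher's exact test, over 6 chromosomes). No chromosome passed. In replicate 2 alone, chromosome IV held 19.9% of the band against 11.3% of thresholded peaks (adjusted exact p = 0.002), which neither the pooled lists (14.7% against 13.4%, adjusted exact p = 0.446) nor replicate 1 (15.3% against 14.2%, adjusted exact p = 0.822) showed.

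Sequence at the summits was richer in G and C than the flanks, but less so than in conservative peaks. The median GC content of the 101 bp around the summit was 45.5% in candidates, 48.5% in conservative peaks and 44.6% in the next band, beside 35.4% over the genome. Words of 6 bases, each counted with its reverse complement (2080 in all), were compared between these centres and flanks that began 200 bp away. More candidates had the word at the centre for 162 words (7.79%) and in the flanks for 133 (6.39%), by an exact McNemar test with Benjamini-Hochberg adjustment. Of the 162 centre words, 147 held 4 or more G or C, and of the 133 flank words, 117 held 1 or none. Among conservative peaks 459 words were called at the centre, of which 116 were also called in the candidates. The number called in either direction, 295 in the candidates, was 53 in the band of replicate 1 and 41 in that of replicate 2, which hold fewer regions.

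ACGCAG was rarer in candidates, but it was chosen above by its p in the same conservative peaks. That choice favours a high share there, so the p of the comparison with them is not independent of the choice. It was at the centre of 57 candidates (4.81%, 3.73 to 6.18) and 152 conservative peaks (13.3%, 11.4 to 15.4; adjusted p = 1.05e-09, Fisher's exact test over all words). The word was in 1.91% of all windows of that width along the genome and in 2.11% of those in promoter windows. Within the candidates it was still more frequent at the centre than in the flanks, where 22 had it (1.86%; adjusted p = 0.00194, exact McNemar test). The next band had 5.25%, close to the candidates. In promoter windows 29 of 485 candidates had it (5.98%), against 80 of 536 conservative peaks (14.9%). In the replicates' own bands the shares were 10.3% against 17.5% of thresholded peaks in replicate 1 and 9.93% against 17.01% in replicate 2, and neither difference passed over all words (adjusted exact p = 0.252 and 0.144).

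**Figure D5:**
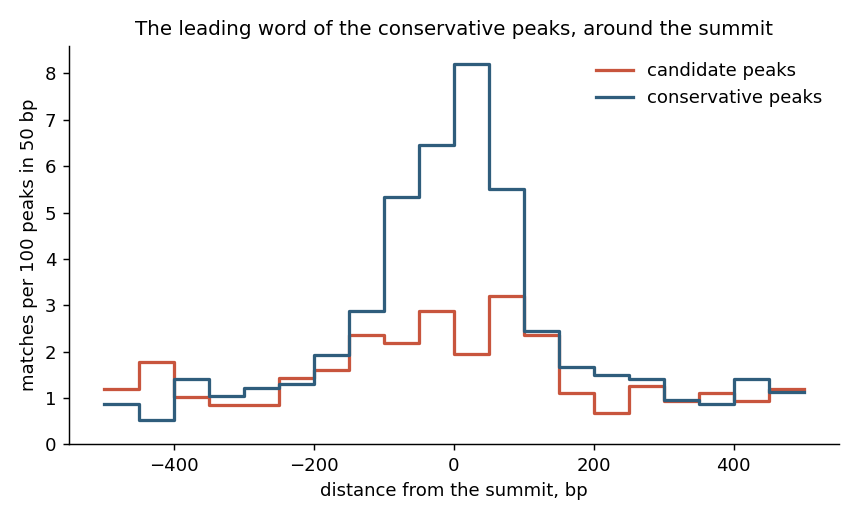
Matches to ACGCAG on either strand per 100 peaks (vertical) in steps of 50 bp by distance from the summit (horizontal), for candidates (red) and conservative peaks (blue). Candidates stay between 1.94 and 3.21 within 150 bp of the summit, while conservative peaks reach 8.21 in the step that begins at the summit.

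Between candidates and conservative peaks, 5.38% of the 2080 words differed at the centre (Fisher's exact test, adjusted over all words), 50 more frequent in candidates and 62 less frequent. Several of the less frequent ones share letters with ACGCAG, so they are not separate findings: CGCAGA was in 4.89% of candidates against 11.9% of conservative peaks (adjusted exact p = 8.26e-07) and AGACGC in 5.15% of candidates against 11.4% of conservative peaks (adjusted exact p = 1.48e-05). CTCGCA, which shares the letters CGCA with ACGCAG, was in 3.04% of candidates against 8.12% of conservative peaks (adjusted exact p = 2.17e-05). A word more frequent in candidates was AATTTC, in 16.5% of candidates against 9.08% of conservative peaks (adjusted exact p = 3.5e-05). The word with the lowest p for a higher share at the candidates' own centres than in their flanks was CCCTCC, in 4.89% of centres and 1.35% of flanks (adjusted p = 2.29e-05, exact McNemar test), and its difference from the 3.93% of conservative peaks did not pass (adjusted exact p = 0.628). CACCAC differed by more points, 8.10% of centres and 3.46% of flanks, and CAGGCG had the larger ratio, 3.71% and 0.844%. GC content moved with these counts, and its part in them was not tested.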

How the data were processed

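ChIP-seq of tagged SAEG-2 was done in 2 biological replicates of 1 group. The values used are the deposited peak lists on ce11 (WBcel235). Per the file lists deposited with the series, each replicate's lists derive from its own alignments and those of the whole series from both. Aligner and peak caller: not given in the sources used here. Deposited scores end at 1000 and follow the −log10 IDR, which the authors deposited in a column of its own, capped at 5. The signal value is the authors' enrichment value per peak, on an unstated scale. In the series ranked lists 16 columns of values per compared set were not used.

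The members and all gene lists were chosen with earlier results of these data known. Scores of 540 and 830 were computed from IDR values of 0.05 and 0.01. Removal required an overlap of 1 bp. Genes came from Ensembl release 115, matched by gene ID (495 of 504 written symbols were found), and sequence and tRNA products from RefSeq. A summit in several location classes counted for the first of coding exon, UTR, intron and noncoding exon, and otherwise as intergenic. Shares were compared by two-sided Fisher's exact tests, Benjamini-Hochberg adjusted within a family, with a threshold of 0.05. Words were compared by an exact McNemar test. The tests were tested on simulated data. The next band and the direct comparison of words were added after seeing the data. Depth is unknown. Wilson intervals cover counting error only, and neighbouring peaks are not independent, so p-values over peaks are too small.

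The rule for named candidates took the 10 of highest signal, the 4 strongest genes of each list, 10 genes with both kinds of peak, the 3 at each edge, the 4 loci of the pathway, the 4 strongest per small RNA class and the 5 strongest over 2000 bp from a coding 5′ end. Its part on candidates thresholded in both replicates found 0. All sls-2 genes were named after their values were seen. Python 3.11.15, SciPy 1.17.1, pandas 2.3.3, numpy 2.4.6 and matplotlib 3.10.9 were used.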

Additional observations from a re-analysis of the deposited data

How the results depend on the processing

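Values here are differences in percentage points, candidates minus conservative peaks, unless counts are named. Of 160 results under the alternatives, 130 were classed as unchanged. For differences, this class includes changes of sign where neither value passed the threshold. The miRNA difference, for example, was -0.0059 in the main setting and 0.206 with an IDR up to 0.025. For counts of words and genes, the class limits only how far the count moved and involves no direction or threshold. With the band limited to an IDR of 0.025, the promoter difference was -2.43, that of 3′ UTRs 1.11 and that of introns 3.93, none past the threshold. With the band widened to 0.1 the intron difference was 3.02, no longer past it, and the snRNA difference -0.978, now past it. With the other ranked list and the non-conservative list, the 3′ UTR difference was 0.744 and the intron one 1.60, no longer past, and the X chromosome difference -5.16, now past. The snoRNA difference with the summit inside the gene was -0.446 and no longer past. Leaving out a replicate meant comparing the other replicate's own band with its own thresholded list. These bands are mostly other regions than the candidates, so the comparison does not test the candidates themselves. The ranges were -0.109 to 3.17 for 3′ UTRs, -1.03 to 6.14 for introns and -2.94 to -2.14 for noncoding exons. They were -2.004 to 0.147 for tRNA genes and -4.94 to -3.51 for snoRNA genes. The ACGCAG difference was -7.15 to -7.08 there and not past. Against the next band, leaving out a replicate gave -0.0607 to 3.59 for intergenic sequence and -0.809 to 0.515 for snRNA genes. The coding exon and intergenic differences from conservative peaks, or from the thresholded list used in their place, passed under every alternative run.

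The 295 called words became 99 with the band up to 0.025, 582 up to 0.1, 541 with the other list, 152 without candidates in the non-conservative list, 95 with 25 bp on either side of the summit and 41 to 53 without a replicate. The 499 genes became 255, 937 and 759 with those first 3 alternatives, 282 with a window of 500 bp upstream to 100 bp downstream and 162 to 186 without a replicate. The word count was 357 with overlapping regions merged. Leaving out candidates that overlap a ranked region of higher signal, chosen after seeing the data, changed no call among the shares and gave 380 words, 223 at the centre and 157 in the flanks. The cause of the other changes was not tested. No paired analysis was possible because there is 1 group. Depth is unknown, the replicate bands are small, and with 2 replicates the spread between animals cannot be estimated.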

Other observations

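Other candidates of high signal lay far from coding 5′ ends. Over 2000 bp away were 347 of the 1185 candidates (29.3%), against 329 of the 1145 conservative peaks (28.7%). The strongest after the repeat at Y49G5A.1 lay near maph-1.2 (94.7 pooled, 47.9 in replicate 1 and 31.0 in replicate 2), C49F8.15 (92.6 pooled, 51.6 in replicate 1 and 30.8 in replicate 2), let-805 (90.9 pooled, 58.4 in replicate 1 and 30.5 in replicate 2) and spt-4 (90.8 pooled, 50.9 in replicate 1 and 32.4 in replicate 2). The summits near let-805 and spt-4 are in coding exons, and in all 4 the value was higher in replicate 1, as at 425 of the 1112 candidates with a region in both replicates. Of the autosomal candidates, 44.5% lay in the outer 25% at either end of their chromosome, against 41.0% of conservative peaks and 49.8% of the next band, a description with no test.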
